A study of Mus musculus with 8 samples.

Results

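Toll-like receptors are membrane proteins that recognise microbial products through a leucine-rich ectodomain and signal through a cytoplasmic TIR domain. The 10 genes described here are Tlr1, Tlr2, Tlr4, Tlr5 and Tlr6, whose products act mainly at the cell surface, and Tlr3, Tlr7, Tlr8, Tlr9 and Tlr13, whose products act in endosomes. They were chosen by gene symbol from the 49315 genes of the count table, and all 10 were among the 13051 genes with enough counts to be tested. The cells were bone marrow-derived macrophages (BMDMs) of C57BL/6 mice, cultured in macrophage colony-stimulating factor at 10 ng/ml. Using Lipofectamine 3000, they were transfected with 25 nM (per the labels) of a gapmeR against the long non-coding RNA MAARS (4 libraries) or of a control gapmeR (4 libraries). A gapmeR is a short antisense DNA flanked by locked nucleic acid, and RNase H cleaves the RNA that it pairs with. Both groups therefore carried a transfected oligonucleotide, no untransfected group was sequenced among the samples used here, and the labels name no microbial ligand. The labels do not state whether libraries of a group came from separate mice or cultures, so p-values measure only the spread between these libraries, which may be technical.

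Surface receptors detect lipids and proteins of microbial walls and flagella, while endosomal receptors detect RNA and DNA released from engulfed material. Nearly all signal through the adaptor MyD88. Tlr3 signals through TRIF, encoded by Ticam1, and Tlr4 uses both. Endosomal receptors need the carrier protein Unc93b1 to leave the endoplasmic reticulum, and macrophages hold many of these receptors as part of their standing equipment for sensing microbes.

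The libraries held 19287279 to 24541205 counts on genes, and every MAARS gapmeR library held more than every control library. Levels are given in CPM, the count of a gene relative to the TMM-scaled total of its library. MAARS itself, annotated as Gm14461 on chromosome 2 from 78237547 to 78302230 of GRCm38, stood at 12.2, 15.1, 12.98 and 12.2 CPM in control replicates 2, 5, 6 and 7. In MAARS gapmeR replicates 9, 11, 13 and 15 it stood at 7.71, 6.41, 7.31 and 5.85 CPM. It fell by 48.1%, a partial knockdown, at log2 -0.95 with an SE of 0.112 and an adjusted p of 5.8e-05. Every edgeR value given here is from the quasi-likelihood fit over all genes tested, with p-values adjusted by Benjamini-Hochberg. All 8 macrophage markers examined were present, with summed levels of 14420 to 17650 CPM in controls and 17950 to 21360 CPM after MAARS gapmeR. Within this list, Lyz2 averaged 9402 and 13170 CPM in the control and MAARS gapmeR groups and Fcgr1 808 and 189.6 CPM, and the part of these markers in the receptor values was not tested. Among the controls, replicates 6 and 7 were closest to each other (chi-square of 4.26 per gene) and replicates 2 and 6 farthest apart (15.4 per gene).

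Of the 10 receptor genes, 8 fell after MAARS gapmeR, 1 rose and 1 did not pass the test. The groups differed in gapmeR sequence as well as in MAARS level, and effects of these cannot be told apart here. Tlr9 and Tlr3, endosomal receptors for DNA and double-stranded RNA, fell most in fold terms. Tlr5, the flagellin receptor and the least expressed member, rose. Tlr8 did not pass the test. Without control replicates 6 and 7, a comparison chosen after seeing the data, 7 fell and 1 rose. By site, 4 of 5 surface genes and 4 of 5 endosomal genes fell. Over all genes tested, 45.4% passed in either direction, 24.0% lower and 21.3% higher, so a call by itself was common in this comparison. A fall of at least 1.5-fold was less common, with 6.31% of all genes tested, and Tlr1, Tlr2, Tlr3 and Tlr9 were the 4 members that reached it, Tlr1 not in every alternative. Tlr5 reached 1.5-fold upward, as did 7.35% of all genes tested. The median log2 fold change was -0.44 over the 10 members, -0.39 over the surface genes and -0.45 over the endosomal genes, against 0.01 over all genes tested. These medians describe the groups and are not a test of one site against the other. In RNA from a whole culture, fewer cells of a type and less RNA per cell cannot be told apart.

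**Figure D1:**
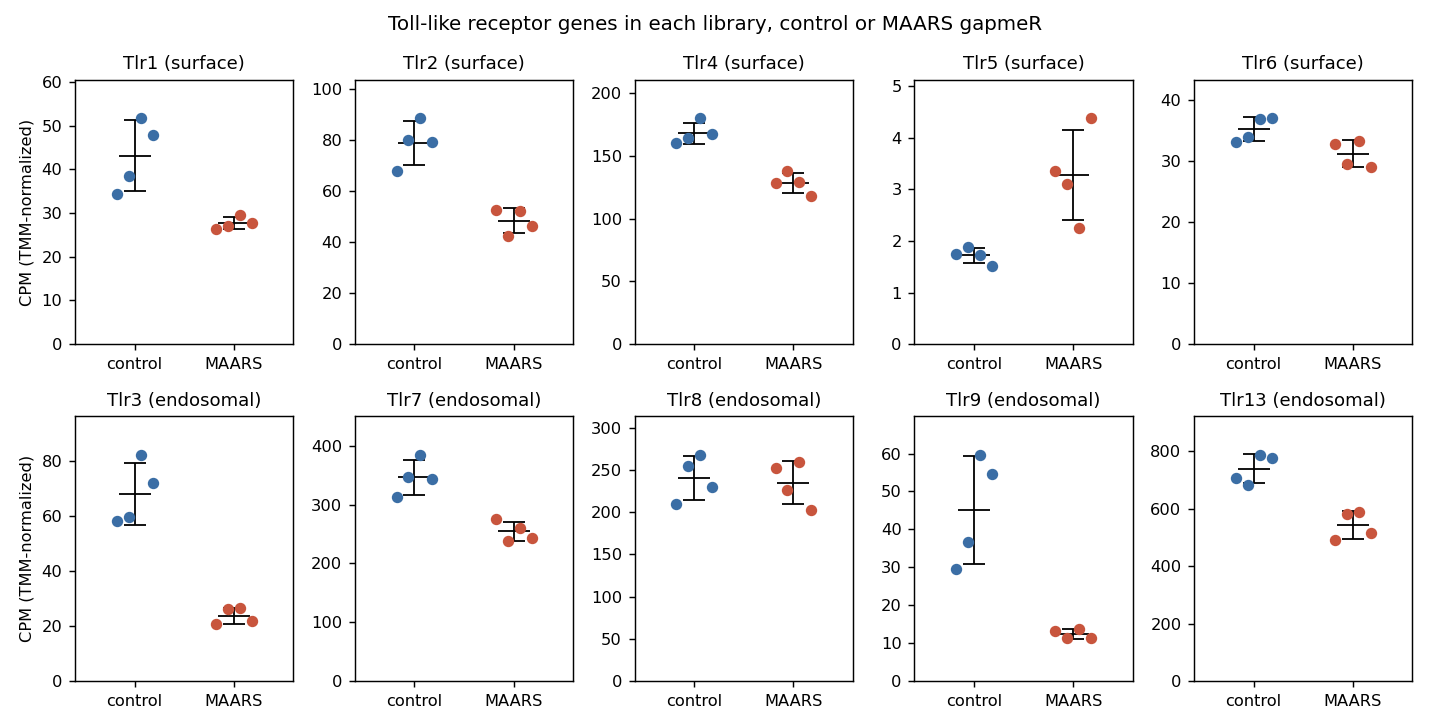
Level of each of the 10 receptor genes in CPM (y axis, from 0) in the 4 control gapmeR and 4 MAARS gapmeR libraries, with points for libraries and bars for the mean ± SD. The points of the 2 groups overlap for Tlr6 and Tlr8 and are separate for the other 8 genes.

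Tlr3 binds double-stranded RNA, and Tlr9 binds unmethylated CpG DNA. They are shown here by their promoters because they had the largest falls, beside the promoter of Tlr8, the member that did not pass the test. Promoter sequences came from RefSeq on GRCm38.p6, cover 250 bases before to 50 bases after the annotated start, and matched 8 of the 10 members with 10 windows. Tlr4 and Tlr7 had no entry. Each line reads 5′ to 3′ on the gene's own strand, in lower case, with capitals for matches to any of 4 motifs searched on both strands. These were the core of the interferon-stimulated response element (ISRE, here GAAA, any 2 bases, GAAA), TTCNNNGAA (STAT-type palindrome), GAGGAA (PU.1-type ETS core) and TGANTCA (AP-1). The Tlr3 window is chr8:45410331-45410630 on the minus strand, the Tlr9 window chr9:106222348-106222647 on the plus strand and the Tlr8 window chrX:167264280-167264579 on the minus strand.
Tlr3: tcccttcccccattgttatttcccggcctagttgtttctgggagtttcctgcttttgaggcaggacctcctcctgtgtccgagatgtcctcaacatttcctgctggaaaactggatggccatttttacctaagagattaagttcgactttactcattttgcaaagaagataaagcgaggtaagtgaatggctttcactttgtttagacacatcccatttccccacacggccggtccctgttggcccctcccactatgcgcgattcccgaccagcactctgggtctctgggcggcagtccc
Tlr9: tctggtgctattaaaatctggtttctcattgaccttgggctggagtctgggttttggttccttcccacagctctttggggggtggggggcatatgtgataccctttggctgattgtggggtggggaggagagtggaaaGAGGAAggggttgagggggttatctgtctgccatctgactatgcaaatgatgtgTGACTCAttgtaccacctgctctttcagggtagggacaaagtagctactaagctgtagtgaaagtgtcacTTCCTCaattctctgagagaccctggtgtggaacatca
Tlr8: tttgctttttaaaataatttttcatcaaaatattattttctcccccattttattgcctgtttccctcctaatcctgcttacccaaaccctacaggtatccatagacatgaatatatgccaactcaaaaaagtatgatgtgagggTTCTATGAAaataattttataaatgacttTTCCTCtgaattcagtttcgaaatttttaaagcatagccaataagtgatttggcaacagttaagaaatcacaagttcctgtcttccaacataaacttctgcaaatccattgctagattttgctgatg

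The Tlr3 window held none of the 4 motifs, which says only that these letters are not in it. That window lies inside the annotated Tlr3 gene, which begins at 45411080 on the minus strand. Bases upstream of the window, up to that position and beyond it, were not searched. The Tlr9 window held GAGGAA on either strand (bases -112 to -107 and 13 to 18, counted from the start site) and TGANTCA at -58 to -52. In the Tlr8 window, TTCNNNGAA lay at -106 to -98 and GAGGAA at -77 to -72. GAGGAA was in 4 of the 10 member windows and in 28.3% of all 32851 promoters of this length, and TTCNNNGAA in 3 of 10 and 8.3%. TGANTCA was in 1 of 10 and 7.81%, and the ISRE core in 1 of 10 and 3.44%. The window with the ISRE core belonged to Tlr6, which has a pair of annotated starts. That window lies inside the annotated Tlr6 gene, which begins at 64960097 on the minus strand. The other Tlr6 window, chr5:64959999-64960298, spans that position and held 0 ISRE cores and 2 matches to TTCNNNGAA. The window with the ISRE core is printed for its overlapping matches at -116 to -107 and -110 to -101 (chr5:64959117-64959416, minus strand).
Tlr6: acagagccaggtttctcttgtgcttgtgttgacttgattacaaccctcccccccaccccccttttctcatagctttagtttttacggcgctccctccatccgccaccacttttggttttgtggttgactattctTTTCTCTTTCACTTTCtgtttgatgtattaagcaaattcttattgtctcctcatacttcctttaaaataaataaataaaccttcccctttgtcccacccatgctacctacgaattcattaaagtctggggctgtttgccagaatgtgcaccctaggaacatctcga

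Tlr9, on chromosome 9 from 106222598 to 106226883, stood at 29.6, 36.7, 59.7 and 54.7 CPM in control replicates 2, 5, 6 and 7. Its levels in MAARS gapmeR replicates 9, 11, 13 and 15 were 13.2, 11.3, 13.7 and 11.3 CPM. The groups did not overlap, and the control libraries themselves were uneven, with replicates 6 and 7 above replicates 2 and 5. The mean fell by 72.6%, from 45.2 ± 14.3 to 12.4 ± 1.24 CPM (SD, n = 4 each, log2 fold change -1.87, SE 0.198, edgeR adjusted p = 2.64e-05). Without control replicates 6 and 7 the log2 fold change was -1.43, and without control replicates 2 and 5 it was -2.21. Summed markers of neutrophils and granulocyte precursors were also higher in control replicates 6 and 7 (147.8 and 244 CPM) than in replicates 2 and 5 (116 and 84.4 CPM). Summed stromal markers (751 and 1043 CPM against 620.1 and 457 CPM) and B cell markers (1.51 and 2.46 CPM against 1.38 and 1.38 CPM) had the same order. Dendritic cell markers (2.33 and 1.47 CPM against 0.922 and 1.73 CPM) did not, nor did the macrophage and T cell markers. The part of any of these markers in the Tlr9 values was not tested. All 7 markers of neutrophils and granulocyte precursors had counts. Their summed level was 84.4 to 244 CPM in controls and 88.8 to 141 CPM after MAARS gapmeR.

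Tlr9 and Tlr7 are also strongly expressed by plasmacytoid dendritic cells and B cells. The 5 dendritic cell markers together reached 0.922 to 2.33 CPM in controls and 1.21 to 1.35 CPM after MAARS gapmeR, and Siglech, a marker of plasmacytoid dendritic cells, had at most 4 counts in any library. The 5 B cell markers summed to 1.38 to 2.46 CPM in controls and 1.37 to 1.91 CPM after MAARS gapmeR. T cell markers stayed at or below 0.276 CPM, with Cd3g at 0 in every library. Stromal markers, mostly Col1a1 and Col1a2, summed to 457 to 1043 CPM in controls and 716 to 1230 CPM after MAARS gapmeR, with none of the 6 at 0, and their part in the receptor values was not tested.

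Tlr3, on the minus strand of chromosome 8 from 45395665 to 45411080, stood at 58.1, 59.7, 82.3 and 72.1 CPM in control replicates 2, 5, 6 and 7. After MAARS gapmeR, replicates 9, 11, 13 and 15 held 20.8, 26.02, 26.5 and 21.8 CPM. Every MAARS gapmeR library lay below every control library, and control replicates 6 and 7 were again the upper pair. The mean fell by 65.0%, from 68.0 ± 11.4 to 23.8 ± 2.92 CPM (SD, n = 4 each, log2 fold change -1.51, SE 0.119, edgeR adjusted p = 5.87e-06). The antisense gene Gm45542 covers 7.32% of the exonic bases of Tlr3, and the sources used here do not state whether counting used strand. Gm45542 itself held at most 5 counts in any library.

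Among the other endosomal genes, Tlr7, a receptor for single-stranded RNA on chromosome X from 167304929 to 167330558, stood at 313, 348, 385 and 343 CPM in controls. The MAARS gapmeR libraries held 275, 239, 261 and 244 CPM, all below the lowest control. Its mean fell by 26.6%, from 347 ± 29.7 to 255 ± 16.6 CPM (SD, n = 4 each, log2 fold change -0.45, SE 0.0673, edgeR adjusted p = 0.000302). Tlr13, a mouse receptor for bacterial ribosomal RNA on chromosome X from 106143204 to 106160493, stood at 708, 684, 788 and 778 CPM in controls. After MAARS gapmeR it stood at 489.9, 583, 587 and 516 CPM, again without overlap. The fall was 739 ± 51.3 to 544 ± 48.6 CPM (SD, n = 4 each, log2 fold change -0.44, SE 0.0710, edgeR adjusted p = 0.000456).

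Tlr8 lies on chromosome X from 167242696 to 167264329, next to Tlr7. It stood at 209, 255, 268 and 229 CPM in controls and at 252, 227, 259 and 202 CPM after MAARS gapmeR. The groups overlapped almost fully. The means were 240.5 ± 26.3 and 235 ± 25.9 CPM (SD, n = 4 each), and the log2 fold change was -0.03 with a 95% interval of -0.23 to 0.17 (edgeR adjusted p = 0.791). The interval leaves room for a change of either sign, and the sign of the estimate turned to 0.031 with upper-quartile scaling.

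**Figure D2:**
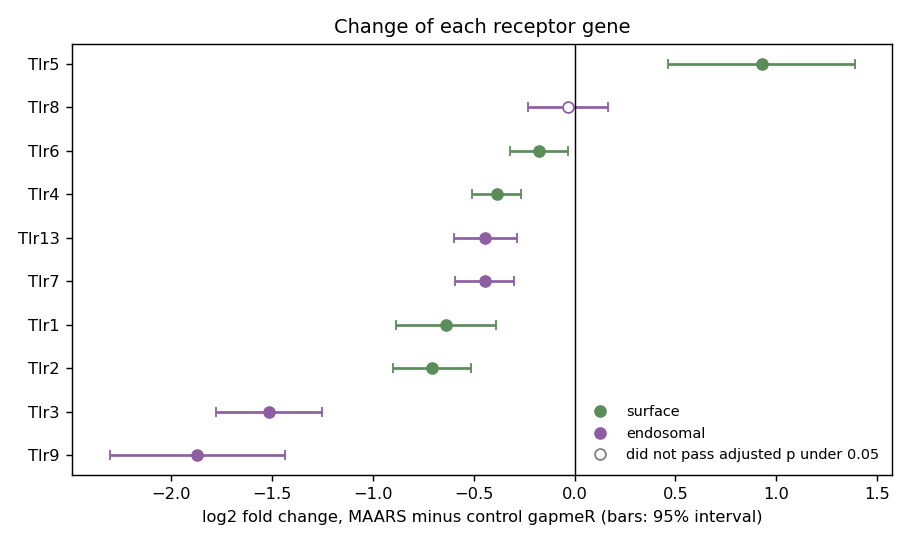
Log2 fold change of MAARS gapmeR against control gapmeR (x axis) for the 10 receptor genes, with points for the edgeR estimate and bars for its 95% interval. Tlr9 and Tlr3 lie farthest to the left at -1.87 and -1.51, Tlr5 lies to the right at 0.93, and only the interval of Tlr8 includes 0.

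Tlr2, on chromosome 3 from 83836272 to 83841767, pairs with Tlr1 or Tlr6 to bind bacterial lipopeptides. It stood at 67.8, 80.1, 88.6 and 79.3 CPM in controls and at 52.7, 42.5, 52.1 and 46.2 CPM after MAARS gapmeR. All MAARS gapmeR libraries were below all controls, and the mean fell from 78.95 ± 8.54 to 48.4 ± 4.87 CPM (SD, n = 4 each). On the log2 scale the difference was -0.71 (SE 0.0879, edgeR adjusted p = 8.03e-05). Its partner Tlr1, on chromosome 5 from 64924679 to 64933563, stood at 34.2, 38.5, 51.7 and 47.9 CPM in controls and at 26.4, 26.9, 29.6 and 27.7 CPM after MAARS gapmeR. The groups were separate, with control replicates 6 and 7 the upper pair once more. Tlr1 fell from 43.1 ± 8.10 to 27.7 ± 1.38 CPM (SD, n = 4 each, log2 fold change -0.64, SE 0.113, edgeR adjusted p = 0.000884). The Tlr1 log2 fold change was -0.58 with upper-quartile factors, -0.545 without control replicate 6 and -0.40 without control replicates 6 and 7, each a fall of less than 1.5-fold that still passed the test.

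Tlr6, the other partner of Tlr2, lies next to Tlr1 on chromosome 5 from 64952031 to 64960097. It stood at 33.1, 34.0, 36.8 and 37.0 CPM in controls and at 32.9, 29.5, 33.4 and 29.1 CPM after MAARS gapmeR, so the groups overlapped slightly. It fell from 35.2 ± 1.98 to 31.2 ± 2.22 CPM (SD, n = 4 each, log2 fold change -0.18, SE 0.0656, edgeR adjusted p = 0.0465). This call was lost in several alternatives. Without control replicate 6, control replicate 7, MAARS gapmeR replicate 11 or MAARS gapmeR replicate 15, the adjusted p from edgeR was 0.108, 0.113, 0.119 and 0.119, and with DESeq2 it was 0.0696.

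Tlr1 and Tlr6 are related in sequence, and 8.85% of the 100-base windows of the Tlr1 transcript occur unchanged in Tlr6. A read that lies within these windows matches both genes, and how reads matching several genes were counted is not given in the sources used here. No other member shared such a window with a gene that it does not overlap. The longest shared run is 229 bases of coding sequence, at chr5:64925537-64925765 in Tlr1 and chr5:64953828-64954056 in Tlr6, both on the minus strand, and is printed 5′ to 3′ because a single read of 100 bases within it matches both genes, although the other read of a pair may lie outside it.
Tlr1 and Tlr6: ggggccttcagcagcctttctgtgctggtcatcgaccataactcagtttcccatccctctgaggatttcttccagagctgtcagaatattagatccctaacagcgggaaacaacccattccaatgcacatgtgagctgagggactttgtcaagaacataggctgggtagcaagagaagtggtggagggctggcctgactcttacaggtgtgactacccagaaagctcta

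Tlr4, the receptor for lipopolysaccharide on chromosome 4 from 66827584 to 66930284, stood at 160.5, 164, 180.0 and 167 CPM in controls. In the MAARS gapmeR libraries it stood at 129, 138, 129 and 118 CPM, each below the lowest control. It fell by 23.5%, from 168 ± 8.49 to 128 ± 8.18 CPM (SD, n = 4 each, log2 fold change -0.39, SE 0.0558, edgeR adjusted p = 0.000225). Tlr5, on chromosome 1 from 182954788 to 182976044, was the member that rose. It had 34, 37, 32 and 31 counts in the controls and 71, 78, 49 and 101 counts after MAARS gapmeR (replicates in the order given above), and its level went from 1.72 ± 0.149 to 3.27 ± 0.875 CPM (SD, n = 4 each). The libraries did not overlap, but the MAARS gapmeR libraries were spread over 2.25 to 4.38 CPM. Its log2 fold change of 0.93 had an SE of 0.211 and an edgeR adjusted p of 0.00419, measured at a depth at which counting error is large.

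For the 8 members whose libraries did not overlap (42.1% of all genes tested had no overlap), the two-sided exact permutation test gave p = 0.0286, the smallest value that 4 against 4 libraries allow. Tlr6 and Tlr8 had p = 0.0571 and p = 0.743 in the same exact test. With any 1 library left out, the log2 fold change stayed between -2.02 and -1.71 for Tlr9, between -1.58 and -1.42 for Tlr3, and between 0.76 and 1.07 for Tlr5.

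To compare levels between genes, CPM was divided by exon length in kilobases. In controls, Tlr13 was the most abundant at 172 ± 11.9 CPM per kb (SD, n = 4), followed by Tlr7 at 85.0 ± 7.27 and Tlr8 at 67.1 ± 7.34 CPM per kb. Tlr4 at 30.2 ± 1.53 and Tlr2 at 26.2 ± 2.83 CPM per kb came next, with overlapping libraries. Tlr3, Tlr9 and Tlr1 shared a level, at 13.1 ± 2.19, 12.98 ± 4.11 and 12.9 ± 2.42 CPM per kb, and could not be ordered beyond their spread. Tlr6 followed at 9.46 ± 0.532 CPM per kb, within the range of the Tlr9 libraries, and Tlr5 was far lower at 0.359 ± 0.0312 CPM per kb. After MAARS gapmeR, Tlr13 still led at 126 ± 11.3 CPM per kb, and Tlr8 at 65.6 ± 7.23 and Tlr7 at 62.4 ± 4.08 CPM per kb overlapped. Tlr4 and Tlr2 stood at 23.1 ± 1.47 and 16.1 ± 1.61 CPM per kb, and Tlr6 and Tlr1 at 8.37 ± 0.596 and 8.27 ± 0.414 CPM per kb. Tlr3 and Tlr9 were at 4.57 ± 0.560 and 3.56 ± 0.357 CPM per kb, below Tlr1 and Tlr6 in every library, and Tlr5 was at 0.683 ± 0.183 CPM per kb. With the longest transcript as length, Tlr4 moved to 41.2, Tlr3 to 15.4 and Tlr5 to 0.450 CPM per kb in controls. The Tlr4 mean then lay well above that of Tlr2, which stayed at 26.2 CPM per kb, so their closeness depends on the length used.

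**Figure D3:**
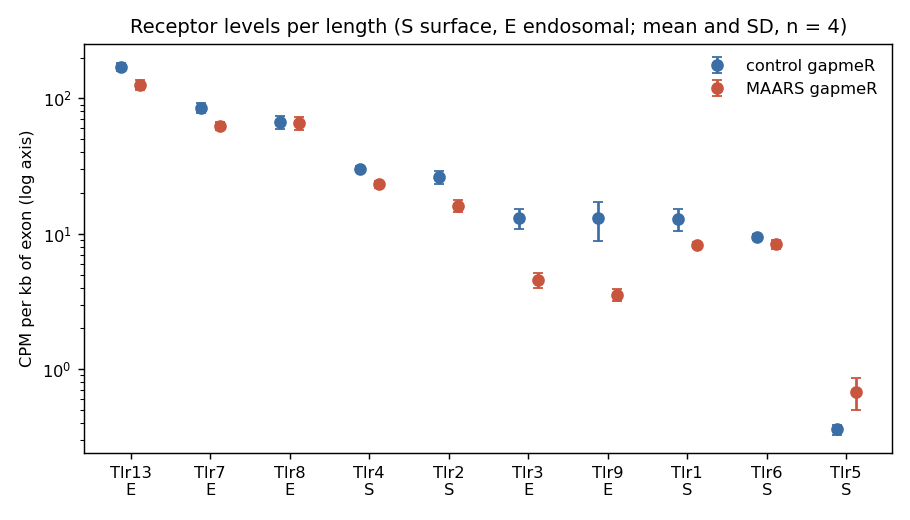
Level of each receptor gene in CPM per kilobase of exon (log axis) in the control gapmeR and MAARS gapmeR groups. Points are group means over the libraries, and bars are the SD. Tlr13 lies highest at 172 and 126 and Tlr5 lowest at 0.359 and 0.683, and Tlr3 and Tlr9 drop from the level of Tlr1 to below that of Tlr6.

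Summed over the 10 genes, the level was 429 ± 35.3 CPM per kb in controls and 319 ± 17.8 after MAARS gapmeR (SD, n = 4 each). Endosomal genes made up 81.6 ± 0.184% of this sum in controls and 82.3 ± 0.517% after MAARS gapmeR, with overlapping libraries. Tlr13 alone made up 40.1 ± 1.85% and 39.6 ± 2.67%. The surface sum went from 79.1 ± 6.96 to 56.5 ± 2.39 CPM per kb and the endosomal sum from 349.9 ± 28.5 to 262 ± 15.9 CPM per kb, so the balance between the 2 sites stayed close while the genes within each site moved by different amounts.

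Neighbouring genes of the family had different fold changes. Tlr1 and Tlr6 lie 18.5 kb apart and Tlr8 and Tlr7 40.6 kb apart, with 0 protein-coding genes between them. The ratio of Tlr1 to Tlr6 per length was 1.15, 1.26, 1.56 and 1.44 in controls. After MAARS gapmeR it was 0.896, 1.02, 0.988 and 1.06. For Tlr7 to Tlr8 the ratio was 1.31, 1.20, 1.26 and 1.31 in controls and 0.958, 0.925, 0.885 and 1.06 after MAARS gapmeR. Neither ratio overlapped between the groups. These ratios use the same libraries as the gene-wise tests and were given no test of their own.

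Around the receptors, the co-receptor list held 11 tested genes of 12, of which 5 rose and 3 fell (median log2 fold change 0.14). Over all genes tested, 21.3% were higher and 24.0% lower, so the share of this list that fell (27.3%) was near the background. The share that rose (45.45%) was above it. Cd14, which hands lipopolysaccharide to Tlr4, rose from 99.6 ± 21.3 to 166 ± 14.2 CPM (SD, n = 4 each, log2 fold change 0.74, SE 0.124, edgeR adjusted p = 0.000629). Its control libraries held 93.0, 128, 100.3 and 77.0 CPM and its MAARS gapmeR libraries 158, 158, 161 and 187 CPM, without overlap. Ly96, encoding MD-2, the partner of Tlr4, stood at 21.8 ± 0.747 and 19.0 ± 1.95 CPM and did not pass the test (log2 fold change -0.20, edgeR adjusted p = 0.0552). It passed with limma-voom (adjusted p = 0.0455), without MAARS gapmeR replicate 9 (edgeR, 0.0354) and without MAARS gapmeR replicate 13 (edgeR, 0.0339).

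Cd180, a homolog of Tlr4 that lacks a TIR domain, and its partner Ly86 (MD-1) both fell. Cd180 went from 675 ± 34.8 to 349 ± 49.8 CPM (log2 fold change -0.95, edgeR adjusted p = 1.26e-05). Ly86 went from 239 ± 33.9 to 126 ± 8.54 CPM (log2 fold change -0.92, edgeR adjusted p = 1.87e-05). The genes of the Tlr4 complex and of its homolog thus moved in different directions, with Cd14 higher and Tlr4, Cd180 and Ly86 lower. Hmgb1 and Hmgb2, chromatin proteins that can carry nucleic acids to these receptors outside the nucleus, rose with log2 fold changes of 0.47 and 0.61. Cd36, a scavenger receptor that works with Tlr2 and Tlr6, rose with 0.57, and the integrin subunit Itgam rose with 0.18. Lbp, which binds lipopolysaccharide in serum, fell from 8.46 to 6.69 CPM with an adjusted p of 0.0456 from edgeR, a call lost when control replicate 6 (0.0873), control replicate 7 (0.136), MAARS gapmeR replicate 9 (0.0743), 11 (0.0661) or 15 (0.119) was left out. The Lbp call was also lost with DESeq2 (adjusted p = 0.0555). In edgeR it was lost with RLE factors (0.0507), upper-quartile factors (0.0935), thinned counts (0.0788) and without control replicates 6 and 7 (0.344).

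Of the 20 tested genes for chaperones, trafficking and processing (22 listed), 2 rose, 5 fell and 13 did not pass, with a median log2 fold change of -0.06. The share that fell, 25.0%, was near the 24.0% of all genes tested, and the share that rose, 10.0%, was below their 21.3%. Unc93b1, the carrier of endosomal receptors, stood at 709 ± 83.3 and 715 ± 43.2 CPM (log2 fold change 0.01, edgeR adjusted p = 0.910). Cnpy3, which helps fold several receptors, stood at 102 ± 2.66 and 96.4 ± 8.04 CPM (edgeR adjusted p = 0.246). Hsp90b1, the chaperone gp96 with which Cnpy3 works, rose (log2 fold change 0.17, edgeR adjusted p = 0.0294). Its adjusted p was between 0.0538 and 0.0819 without control replicate 6 or 7 or any MAARS gapmeR replicate, while the log2 fold change stayed between 0.13 and 0.21 with any 1 library left out. Without control replicates 6 and 7 the Hsp90b1 log2 fold change was 0.079 (edgeR adjusted p = 0.256). Ap3b1, a subunit of the AP-3 complex that sorts endosomal receptors, rose with 0.23 (edgeR adjusted p = 0.00190).

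Among the 5 genes of that list that fell, Slc15a4, a transporter needed for Tlr7 and Tlr9 signalling, went from 75.9 ± 2.43 to 59.3 ± 3.60 CPM (log2 fold change -0.36, edgeR adjusted p = 0.000268). Its relative Slc15a3 went from 692 ± 27.4 to 445 ± 23.3 CPM (-0.64). Rab7b, a GTPase that sends Tlr4 and Tlr9 to lysosomes, went from 549.7 ± 15.6 to 364 ± 25.1 CPM (-0.59). The nucleoside transporter Slc29a3 and the protease cathepsin S, encoded by Ctss, fell with log2 fold changes of -0.53 and -0.57.

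All 4 TIR adaptor genes that passed the test fell, of 5 tested and 6 listed, with a median log2 fold change of -0.42 and against 24.0% of all genes tested called lower. Myd88 stood at 106, 121, 135 and 132 CPM in controls and at 65.8, 67.9, 71.6 and 64.9 CPM after MAARS gapmeR, a wide separation. It fell from 124 ± 12.9 to 67.6 ± 3.01 CPM (SD, n = 4 each, log2 fold change -0.87, SE 0.0715, edgeR adjusted p = 6.7e-06). Tirap, which brings MyD88 to Tlr2 and Tlr4, fell with -0.42 (edgeR adjusted p = 0.00217), and Ticam1, the adaptor of Tlr3, fell with -0.36 (edgeR adjusted p = 0.000820). Pik3ap1, a TIR-containing link to phosphoinositide kinase, fell from 694 to 434 CPM, a log2 fold change of -0.68. Ticam2, which couples Tlr4 to Ticam1, stood at 32.1 ± 2.18 and 30.5 ± 4.95 CPM and did not pass (edgeR adjusted p = 0.567).

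Of the 25 proximal kinases and ubiquitin ligases, all tested, 9 fell, 2 rose and 14 did not pass (median log2 fold change -0.10). The shares were 36.0% lower and 8.0% higher, against 24.0% and 21.3% of all genes tested, and in both directions together the list was near the 45.4% of all genes tested that passed. Irak4, the kinase nearest to MyD88, stood at 50.4 ± 4.07 and 53.1 ± 1.79 CPM (edgeR adjusted p = 0.325). Irak2, recruited after it, fell from 53.3 ± 3.38 to 36.7 ± 1.58 CPM (log2 fold change -0.54, edgeR adjusted p = 3.15e-05). Ikbke, a kinase upstream of interferon regulatory factors, fell with -0.56. Peli2, a ubiquitin ligase that acts on IRAK proteins, rose from 14.97 ± 3.51 to 32.5 ± 5.64 CPM (1.12, edgeR adjusted p = 0.000212), and Tab1, a subunit of the TAK1 kinase complex, rose with 0.33.

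**Figure D4:**
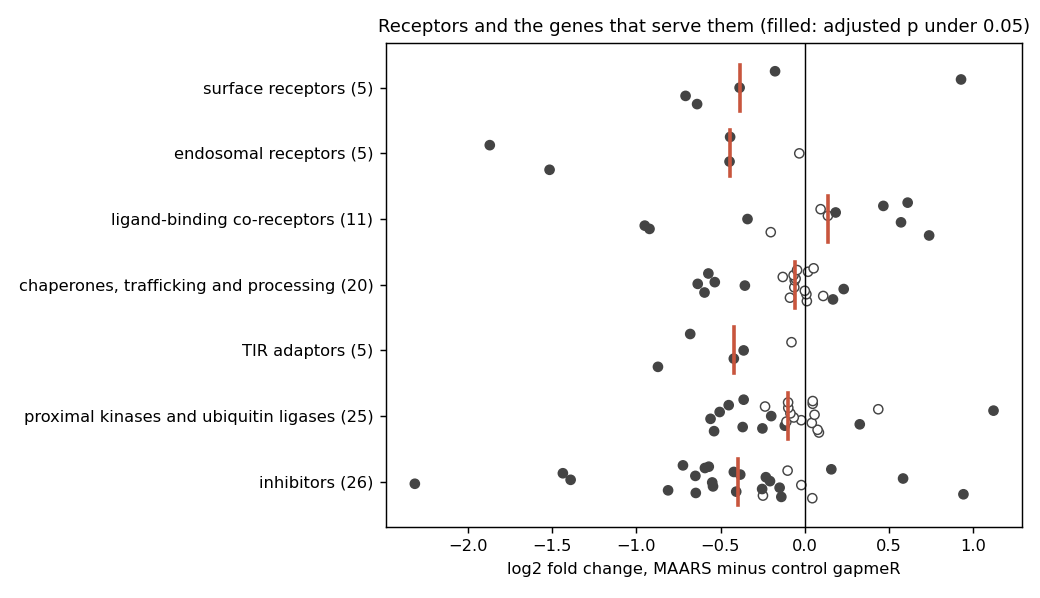
Log2 fold change of MAARS gapmeR against control gapmeR (x axis) for the tested genes of each pathway list (y axis). Filled points have adjusted p under 0.05, and red lines are list medians. The adaptor and inhibitor lists have medians of -0.42 and -0.39, and the co-receptor list has 0.14.

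Among the 26 inhibitors, all tested, 19 fell, 3 rose and 4 did not pass, with a median log2 fold change of -0.39. The share that fell was 73.1%, against 24.0% of all genes tested, and the share that rose was 11.5%, against 21.3%. The list was chosen with earlier results of these data known, so these shares are a description and not a test. Trim30a, which limits signalling through the TAB proteins, fell from 413 ± 46.6 to 152 ± 27.3 CPM (log2 fold change -1.44, edgeR adjusted p = 7.28e-06). The phosphatase gene Ptpn6 fell from 342 to 234 CPM (-0.55). Tollip fell with -0.14 (edgeR adjusted p = 0.0413). That call was lost without control replicate 2, 5 or 6 or MAARS gapmeR replicate 9, 11 or 13, with adjusted p from 0.0525 to 0.0961. The Tollip call was also lost with upper-quartile factors (edgeR adjusted p = 0.228), no filter (0.0730) and without control replicates 2 and 5 (0.261). Irak3, an inactive kinase that blocks the IRAK complex, stood at 23.5 ± 1.59 and 24.3 ± 1.44 CPM (edgeR adjusted p = 0.621). The inhibitory receptor gene Cd300a rose from 214 to 321 CPM (0.58), and the lipid phosphatase gene Inpp5d rose with 0.16. Il1rl1, at 0.473 and 0.923 CPM, rose with an adjusted p of 0.0311 from edgeR, a call lost without control replicate 2, 6 or 7 or MAARS gapmeR replicate 9, 13 or 15 (0.0505 to 0.0871). The Il1rl1 call was also lost with DESeq2 (adjusted p = 0.0624). In edgeR it was lost with no filter (0.0595) and without control replicates 6 and 7 (0.264).

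Over the 87 tested genes of these 5 lists, 40 fell (46.0%, against 24.0% of all genes tested) and 12 rose (13.8%, against 21.3%), with a median log2 fold change of -0.12. All 5 lists were chosen with earlier results of these data known, so their shares against all genes are not a test. With upper-quartile scaling, 60.4% of all calls were upward against 47.0% with TMM, the median of all genes moved from 0.01 to 0.07, and 7 of the 10 receptor genes were called lower and 1 higher.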

How the data were processed

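RNA-Seq of BMDMs transfected with MAARS or control gapmeR was used. Per the submitters' processing notes, Trimmomatic 0.36, STAR 2.5.2b and featureCounts (Subread 1.5.2) were used with GRCm38, and the authors deposited raw read counts for 49315 genes, not normalized. Strand setting and treatment of multiply mapping reads are not given in the sources used here. Samples were grouped by their labels, and 0 per-sample columns were left unused.

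edgeR's filterByExpr (count of at least 10, total of at least 15) left 13051 genes, which were compared with TMM factors, glmQLFit and glmQLFTest (R 4.3.3, edgeR 4.0.16), with Benjamini-Hochberg adjustment over these genes and a threshold of 0.05. Standard errors were the absolute log2 fold change over the square root of F. Single genes were also compared by the two-sided exact permutation test on log2 CPM (prior count 2). GENCODE M21 held 99.47% of the genes and gave exon lengths and overlaps. Replicates of a group differed by a chi-square of 4.26 to 15.4 per gene, so none was a repeat of another within sampling noise. Depth was 19287279 to 24541205 counts per library. The fit was tested on simulated counts.

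Alternatives were RLE or upper-quartile factors, a robust prior, DESeq2 1.42.0, limma-voom (limma 3.58.1), unfiltered genes, a minimum mean of 10 counts, 1 surrogate variable (sva 3.50.0), thinned counts, other thresholds, longest-transcript lengths, and each library left out. Leaving out control replicates 2 and 5, or 6 and 7, was added after seeing the data. The members, the pathway lists and the markers were chosen with earlier results of these data known. Genes named were the members, MAARS, 16 fixed partners, and the 2 genes of smallest p in each direction of each list. Cd36, Itgam, Lbp, Slc29a3, Ctss and Il1rl1 were named after their values were seen, to complete short counts. Markers, Gm45542, Tlr11 and Tlr12 are given as levels or counts only. Some marker values are not reported here.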

Additional observations from a re-analysis of the deposited data

Results flagged for a closer look

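A library far from the other 3 of its group was found in 2 of the 92 groups of 4 libraries examined (46 named genes in each of the control and MAARS gapmeR groups), and chance alone gives about 1 in 20 such groups. Cd14 stood at 187 CPM in MAARS gapmeR replicate 15, against 158 to 161 CPM in the other 3 MAARS gapmeR libraries. Slc15a4 stood at 79.5 CPM in control replicate 5, against 74.4 to 74.9 CPM in the other 3 controls. None of the 10 receptor genes had such a library.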

How the results depend on the processing

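Of 874 recomputed log2 fold changes over 46 genes, 815 kept direction and side of the threshold, 47 lost the call, 3 gained it and 9 changed sign. Tlr1, Tlr2, Tlr3, Tlr4, Tlr5, Tlr7, Tlr9, Tlr13 and MAARS kept both under every alternative run. MAARS stayed between -1.01 and -0.88 with any 1 library left out. Tlr6 lost its call in 9 of 19 alternatives, among them RLE factors (adjusted p = 0.0559), upper-quartile factors (0.173) and no filter (edgeR, 0.0670), and without control replicates 6 and 7 it was -0.11 (0.319). The sign changes were in genes that had not passed. Tlr8 turned to 0.0307 with upper-quartile factors, 0.0192 without control replicate 6, 0.0338 without MAARS gapmeR replicate 15 and 0.0150 without control replicates 6 and 7 (-0.0888 to 0.0338 with any 1 library left out). Unc93b1 turned to -0.0598 without control replicate 2, -0.0180 without MAARS gapmeR replicate 9 and -0.0607 without control replicates 2 and 5 (-0.0598 to 0.0575 with 1 library left out). Ticam2 turned to 0.0159 without MAARS gapmeR replicate 15 (-0.165 to 0.0159 with 1 library left out), and Irak3 to -0.0387 without control replicates 6 and 7. Tab1 and Itgam lost their calls without control replicates 6 and 7 (adjusted p = 0.0807 and 0.119) and Inpp5d without 2 and 5 (0.0886).

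The number of receptor genes called was 9, and 5 when a 1.5-fold change was also required, since fewer genes can meet both conditions. Genes called higher in the chaperone list were 2, and 1 without control replicates 6 and 7. With 1 library left out that count ranged from 1 to 2. In the kinase list, 2 were higher, 4 with upper-quartile factors and 1 without control replicates 6 and 7, and the cause was not tested. No paired analysis was possible because the groups share no replicate numbers. Depth limited Tlr5, with 31 to 101 counts per library.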

Other observations

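Tlr11 and Tlr12, which recognise profilin of protozoa and are not among the 10 receptors described, had too few counts to be tested. Tlr11 had 9, 11, 24 and 35 counts in control replicates 2, 5, 6 and 7 and 3, 5, 4 and 0 counts in MAARS gapmeR replicates 9, 11, 13 and 15. Tlr12 had 1, 6, 2 and 3 counts in controls and 0, 1, 0 and 0 after MAARS gapmeR.

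AU-rich elements of messenger RNA, with ATTTA as their core, are bound by stability factors such as HuR. For each gene, the 3′ UTR was taken from the coding transcript with the longest coding sequence, and those of other transcripts were not searched. In this 3′ UTR, ATTTA occurred 5 times in the 1248 bases of Tlr3 (4.01 per kb) and 2 times in the 1321 bases of Tlr4 (1.51 per kb). It occurred 1 time in the 407 bases of Tlr7 (2.46 per kb). The other 7 receptor genes had 0, over 58 bases in Tlr8, 148 in Tlr2, 166 in Tlr1, 273 in Tlr9 and 290 in Tlr5. Tlr13 and Tlr6 had 0 over 859 and 1111 bases. Short 3′ UTRs leave little room for ATTTA, so a count of 0 in them says little. The median over 19112 genes with at least 100 bases of 3′ UTR was 1.31 per kb, and Tlr8 was below that length. Whether ATTTA has a part in the fold changes of the receptor genes was not tested.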
